A study of Homo sapiens with 12 samples.

Results

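ANKRD1 and 9 genes of the YAP-TEAD pathway were followed from proliferation into replicative senescence, in mRNA and in ribosome-protected fragments (RPF). ANKRD1 was chosen by its gain of footprints in these same libraries, so its values are described and carry no test. The other 9 genes, CTGF, CYR61, AMOTL2, AJUBA, CRIM1, LATS2, YAP1, WWTR1 and TEAD1, were listed by name, and all 10 were found among 38716 gene symbols. CTGF and CYR61 are older names, and the tables list them as CCN2 and CCN1. The question put to the data was whether the other YAP targets follow ANKRD1.

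The cells were IMR90, a long-established human fibroblast line from normal lung, grown in the same serum-containing medium in both groups. The proliferating group (Pro) still divided, and the senescent group (Sen) had been passaged until replicative exhaustion. Each group had 3 lysates. Each lysate was made in a buffer with cycloheximide, which holds ribosomes in place, and was split into a Ribo-seq and an RNA-seq library, for 12 libraries in all. More than a single isolate of the line is named in the protocols, not by sample, so isolate and state cannot be told apart here. The proliferating RNA-seq samples also carry a DMSO-like tag that no label explains.

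The mRNA level of a gene adds up its RNA-seq reads in the CDS and both UTRs, and RPF are its CDS reads in Ribo-seq. Both are given in CPM, the depth-scaled count unit of edgeR, after TMM scaling of each library. RNA-seq libraries held 7902427 to 14144455 reads. Ribo-seq depth was uneven, with 54421 CDS reads in Pro 1 and 54708 in Sen 2 against 583798 to 1718521 in the other 4 libraries. A floor of 3 reads stood at 50.5 CPM in Pro 1 and 51.2 CPM in Sen 2, and at no more than 5.66 CPM elsewhere, so the shallow libraries Pro 1 and Sen 2 resolve only the more abundant members. These libraries also had the lowest CDS share of their assigned footprints, 34.35% (Wilson 95% interval, 34.12 to 34.59) and 14.98% (14.86 to 15.09), where the others lay between 54.7% and 88.82%. All 10 fibroblast markers were expressed, with a summed mRNA level of 31684 to 35650 CPM in Pro and 30127 to 34872 CPM in Sen. In bulk cultures, fewer cells with a transcript and less of it per cell cannot be told apart.

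The Hippo pathway is a kinase cascade. The kinases MST1 and MST2 activate LATS1 and LATS2, which phosphorylate the coactivators YAP (gene YAP1) and TAZ (gene WWTR1) and hold them in the cytoplasm. When the cascade is quiet, as in spread cells under mechanical tension, YAP and TAZ enter the nucleus and bind TEAD transcription factors. In fibroblasts this switches on matricellular proteins such as CTGF and CYR61, the nuclear and sarcomeric ankyrin repeat protein ANKRD1, and regulators that feed back on the pathway, among them LATS2, AMOTL2 and AJUBA.

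TEAD proteins bind DNA at a short core, written here as GGAATG and searched on both strands in the 250 bases before each annotated start. RefSeq promoter entries (GRCh38.p14) matched 7 of the 10 members, and CYR61, CRIM1 and TEAD1 had no entry. Of the members with an entry, CTGF held 3 cores, ANKRD1 held 2, and YAP1, AMOTL2 and AJUBA held 1 each, while LATS2 and WWTR1 held 0. The stretches below are printed because they carry the cores of the 2 most induced members and those of AMOTL2 and YAP1, whose mRNA did not pass the test. They run 5′ to 3′ on the strand of the gene, with the core, or its reverse complement, in capitals. ANKRD1 lies at chr10:90921088-90921337 on the minus strand, CTGF at chr6:131951373-131951572 on the minus strand, AMOTL2 at chr3:134374448-134374547 on the minus strand, and YAP1 at chr11:102110247-102110346 on the plus strand.
ANKRD1: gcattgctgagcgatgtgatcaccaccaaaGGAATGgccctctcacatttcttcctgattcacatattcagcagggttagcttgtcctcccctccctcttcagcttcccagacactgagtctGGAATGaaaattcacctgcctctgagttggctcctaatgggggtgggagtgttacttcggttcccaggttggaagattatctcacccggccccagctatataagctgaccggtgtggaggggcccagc
CTGF: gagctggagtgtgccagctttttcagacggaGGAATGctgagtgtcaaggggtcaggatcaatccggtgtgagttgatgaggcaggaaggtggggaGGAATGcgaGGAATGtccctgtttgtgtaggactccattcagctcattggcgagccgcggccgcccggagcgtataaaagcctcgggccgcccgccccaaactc
AMOTL2: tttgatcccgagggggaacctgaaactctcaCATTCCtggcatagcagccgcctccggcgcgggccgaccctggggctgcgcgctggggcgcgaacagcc
YAP1: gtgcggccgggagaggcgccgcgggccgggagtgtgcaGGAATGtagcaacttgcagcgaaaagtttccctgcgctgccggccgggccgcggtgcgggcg

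In ANKRD1 the cores began at -220 and -128 from the start, and in CTGF at -169, -104 and -95. The core of YAP1 began at -162, that of AMOTL2 at -69 in the second of its 2 annotated starts, and that of AJUBA at -59 in the second of 2. Among 34943 promoter windows of the same length, 11.9% held at least 1 core, 0.942% at least 2 and 0.083% at least 3. ANKRD1 also held 1 match to TGANTCA, a loose form of the AP-1 site with any middle base, at -195, where it reads TGATTCA. The loose form was found in 6.59% of windows. None of the 7 members with an entry held a CArG box, the site bound by SRF, in the bases searched. The box occurred in 1.16% of windows. A match is a run of letters, and whether a factor bound there was not measured.

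ANKRD1 encodes a cardiac ankyrin repeat protein that striated muscle makes in quantity and that stretched fibroblasts also make. Its mRNA stood at 11.7, 11.2 and 9.21 CPM in Pro 1, 2 and 3, and at 216, 252 and 219 CPM in Sen 1, 2 and 3. Every senescent library was far above every proliferating one, and the log2 change was 4.43 (SE 0.10). Only 37 of 12775 tested genes had a larger log2 change in mRNA. Footprints of ANKRD1 came to 33.7, 13.0 and 13.9 CPM in Pro 1, 2 and 3, from 2, 9 and 24 reads. They came to 377, 222 and 464 CPM in Sen 1, 2 and 3, from 580, 13 and 246 reads. The groups again did not overlap, although the 2 reads of Pro 1 lie under the floor. The log2 change in RPF was 4.79 (SE 0.24), and 4 of 7521 tested genes had a larger one. Over 14 alternative settings for mRNA the change lay between 4.32 and 4.48, and over 13 for RPF between 4.63 and 4.92. The translational efficiency (TE), the ratio of RPF to mRNA, had a fitted log2 change of 0.35 with an interval of -0.29 to 0.98, and of 0.01 to 0.48 over 14 alternatives. The unweighted mean of log2 TE went the other way, from 0.91 in Pro to 0.59 in Sen, so no direction is given.

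**Figure D1:**
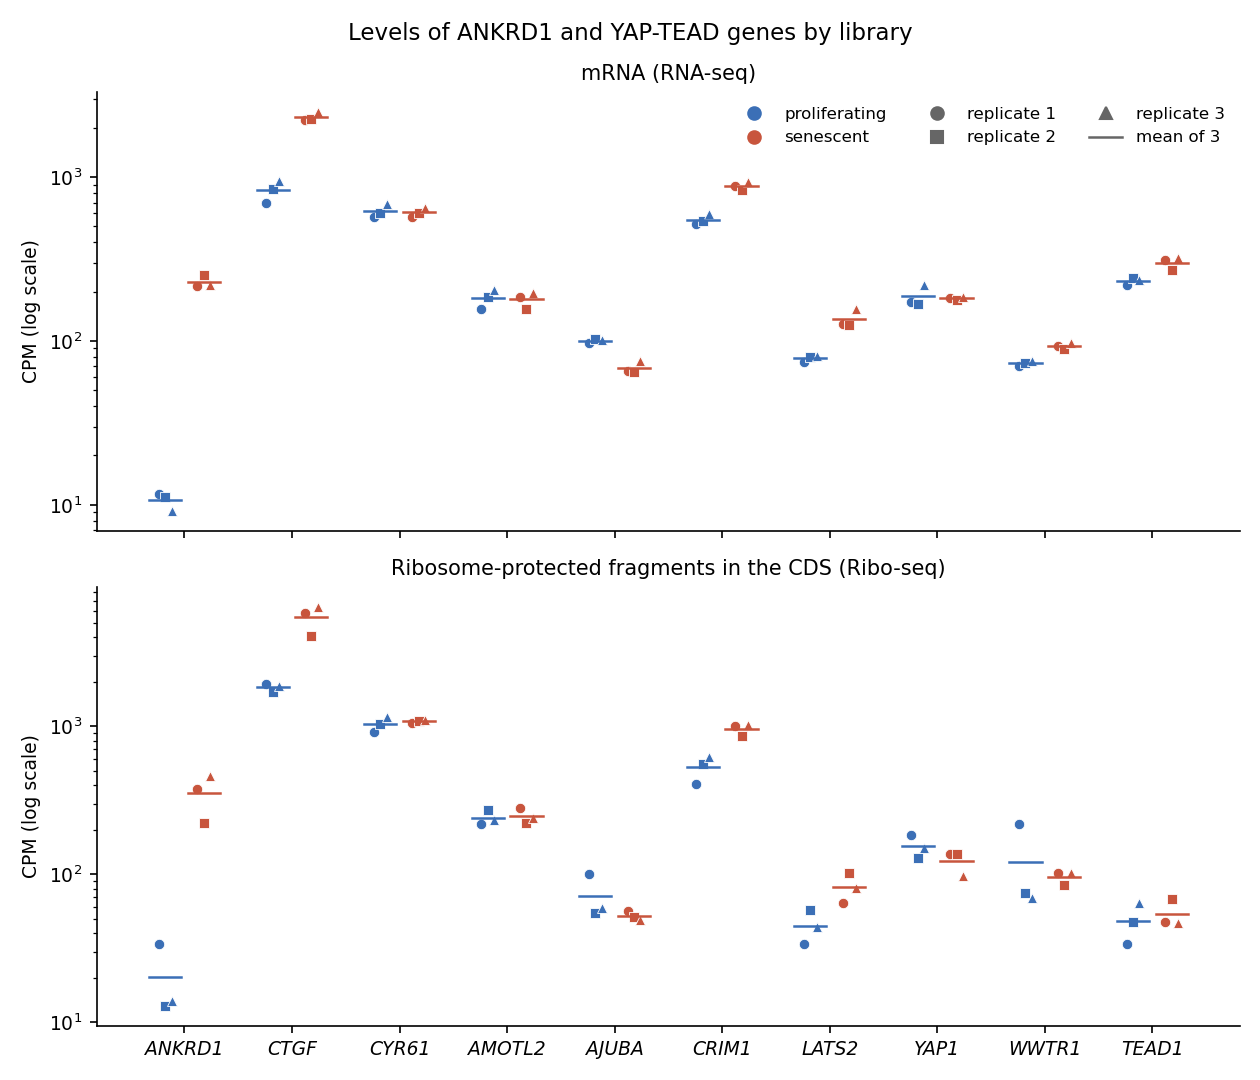
CPM on a log scale for 10 genes in each RNA-seq library (top) and Ribo-seq library (bottom), with proliferating libraries in blue, senescent in red, symbols for replicates and a line at the mean of 3. ANKRD1 stands apart, from 9.21 to 11.7 CPM in proliferating RNA-seq libraries and from 216 to 252 CPM in senescent ones, CTGF is also separated in both panels, and CYR61 overlaps in both.

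ANKRD1 is a muscle gene in the body, so markers of striated muscle were examined. Their summed mRNA level was 74.7 to 83.9 CPM in Pro and 71.6 to 85.4 CPM in Sen. Most of it was DES, also listed as a smooth muscle marker, at 50.6 CPM in Pro and 48.9 CPM in Sen. ACTC1, higher in Sen, and TTN and TNNT2, lower in Sen, made up most of the rest. Of the 12 markers, 7 stayed under 1 CPM in all RNA-seq libraries, among them TNNT3, MYOD1 and MYOG at 0. Smooth muscle markers, mostly ACTG2, summed to 942 to 1034 CPM in Pro and 1384 to 1413 CPM in Sen, with all 6 genes expressed. The means of ACTG2, SMTN, LMOD1 and SYNM were higher in Sen. That of MYH11 was lower, 18.1 CPM in Sen against 30.9 CPM in Pro, and so was that of DES. Epithelial markers summed to 1.21 to 2.68 CPM in Pro and 1.90 to 2.28 CPM in Sen, with SFTPC and NKX2-1 at 0. Endothelial markers summed to 54.5 to 62.4 CPM in Pro and 93.8 to 106 CPM in Sen, nearly all of it TEK, with CDH5 at 0. Immune markers summed to 19.4 to 21.5 CPM in Pro and 32.6 to 35.5 CPM in Sen, nearly all of it CD68, with CD3E and ITGAM at 0. The part of the smooth muscle, endothelial and immune marker genes, whose sums were higher in Sen, in the results below was not tested.

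Among the 9 other members, 6 changed in mRNA, 5 higher and 1 lower in senescent cells. Of all 12775 genes tested, 73.6% changed, 36.6% higher and 37% lower, so the share of members that changed is near that of genes at large. Calls were made in edgeR's quasi-likelihood test at a p-value under 0.15 after Benjamini-Hochberg adjustment over all genes tested, and adjusted p-values below are from that test unless another is named. Groups of 3 did not overlap in 6 of the 9, against 67.8% of all tested genes. The median log2 change of the 9 was 0.35, beside -0.01 over all genes. In RPF, 4 of the 9 were called, all with a positive fitted change. For WWTR1, which is among these, the unweighted mean was higher in Pro, so no direction is given for it. Of 7521 tested genes 54.4% changed, 27.5% higher and 26.9% lower. Footprint groups did not overlap in 3 of the 9, against 32.5% of tested genes, and the median log2 change was 0.07 beside -0.00. Without Pro 3 or without Sen 3 the members called in RPF dropped to 2.

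**Figure D2:**
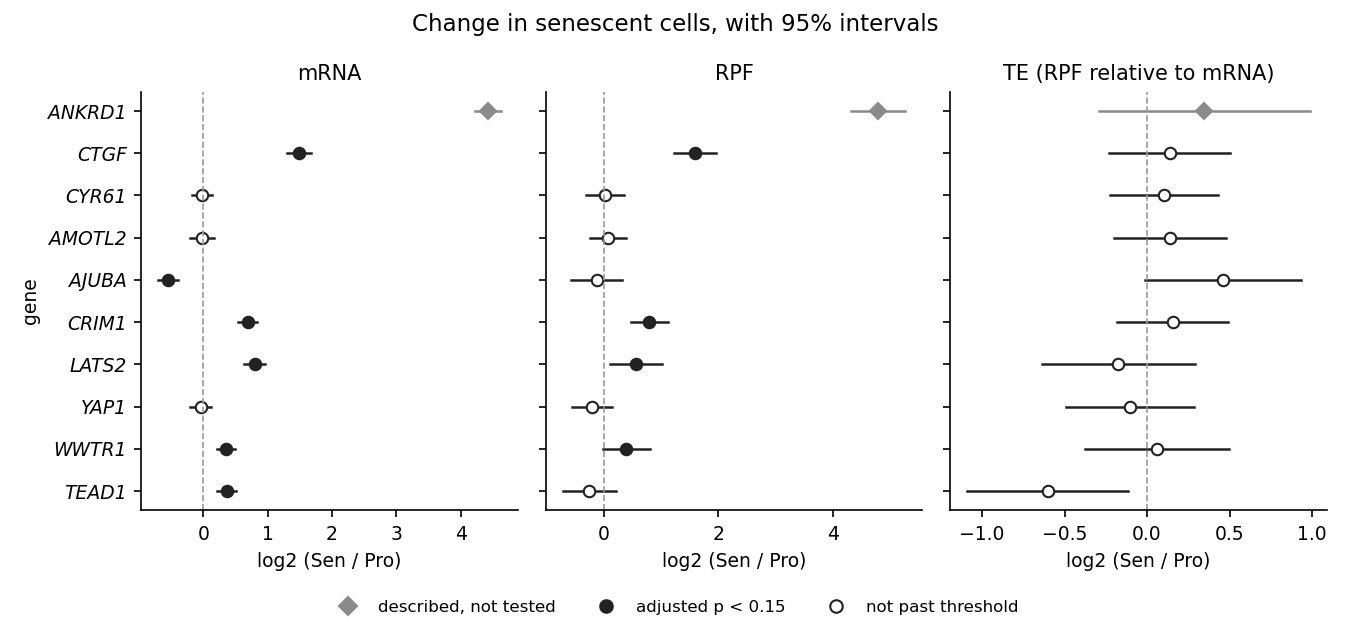
Log2 ratio of senescent to proliferating cells (x axis) for each gene (y axis) in mRNA, RPF and TE, with lines for 95% intervals. Filled circles passed the test, open circles did not, and the grey diamond marks ANKRD1, which is described only. ANKRD1 and CTGF lie well to the right in mRNA and RPF, AJUBA lies to the left in mRNA, and no gene is filled in TE.

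CTGF, a secreted matricellular protein of the CCN family that promotes fibrosis, was the member that came nearest to ANKRD1. In mRNA it stood at 693, 849 and 949.9 CPM in Pro 1, 2 and 3, and at 2223, 2267 and 2500.2 CPM in Sen 1, 2 and 3. All senescent libraries were above all proliferating ones, with a log2 change of 1.49 (SE 0.09, adjusted p = 7.18e-12). Footprints of CTGF came to 1936, 1714 and 1869.7 CPM in Pro and to 5848, 4059.9 and 6375 CPM in Sen. The footprint groups did not overlap either, and the shallow Sen 2 was the lowest of the senescent libraries. The change on the log2 scale in RPF was 1.59 (SE 0.19, adjusted p = 5.89e-11). An antisense transcript, LINC01013, overlaps CTGF, and reads from the opposite strands could not be told apart because the strand rule of the counting is not given.

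CYR61, the closest relative of CTGF in the list and likewise a secreted integrin ligand, did not pass the test in either layer. RNA-seq put it at 569, 601 and 686 CPM in Pro and at 570.2, 604 and 652 CPM in Sen, fully overlapping. On the log2 scale the change in mRNA was -0.02 with an interval of -0.18 to 0.13 (adjusted p = 0.81). Footprints came to 909, 1039.8 and 1148 CPM in Pro and to 1044, 1092 and 1098 CPM in Sen, again with the senescent values inside the proliferating range. The log2 change in RPF was 0.02 with an interval of -0.31 to 0.34 (adjusted p = 0.943). A rise of CYR61 as large as that of CTGF lies outside both intervals.

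The ratio of CTGF to CYR61 reads within a library does not depend on scaling to depth. In mRNA it was 1.218, 1.41 and 1.39 in Pro and 3.90, 3.75 and 3.84 in Sen. In RPF it was 2.13, 1.65 and 1.63 in Pro and 5.60, 3.76 and 5.81 in Sen. The ratio was higher in every senescent library of either type, by 1.52 on the log2 scale in mRNA and 1.47 in RPF. The pair was picked after its values were known, so the ratio is given as a description.

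**Figure D3:**
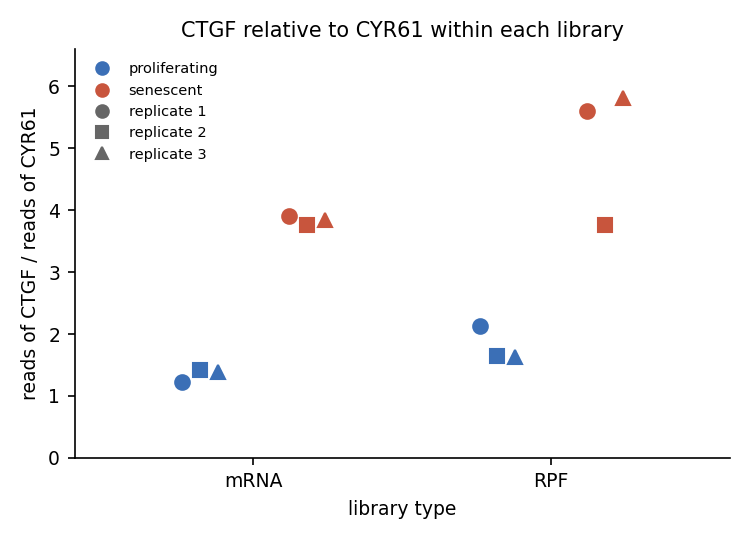
Reads of CTGF divided by reads of CYR61 (y axis, linear from 0) in each RNA-seq and Ribo-seq library, proliferating in blue and senescent in red. Senescent RNA-seq libraries lie from 3.75 to 3.90 and proliferating ones from 1.218 to 1.41, with the same order in RPF.

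CRIM1, a transmembrane protein that binds bone morphogenetic proteins and is a frequent member of YAP target lists, rose in both layers. Its mRNA stood at 517, 537 and 596 CPM in Pro and at 882, 836 and 937 CPM in Sen. Its footprints came to 404, 553 and 624 CPM in Pro and to 996, 853 and 1023 CPM in Sen. In neither layer did the groups overlap. The log2 change was 0.69 in mRNA (SE 0.08, adjusted p = 5.82e-08) and 0.80 in RPF (SE 0.17, adjusted p = 5.71e-05). An antisense transcript, ENSG00000273090, overlaps CRIM1, with the same uncertainty over strand as for CTGF.

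LATS2, the kinase that inactivates YAP and TAZ and is itself a YAP target, also rose in both layers. In mRNA it stood at 74.7, 79.9 and 80.8 CPM in Pro and at 127, 126 and 157 CPM in Sen, with a clear gap between the groups. The change on the log2 scale in mRNA was 0.80 (SE 0.08, adjusted p = 3.24e-08). Footprints of LATS2 were few, 2, 40 and 76 reads in Pro and 98, 6 and 43 reads in Sen. These make 33.7, 57.6 and 43.96 CPM in Pro and 63.7, 102 and 81.1 CPM in Sen, which do not overlap, though the 2 reads of Pro 1 lie under the floor. On the log2 scale the change in RPF was 0.56 (SE 0.23, adjusted p = 0.0445). Without Pro 3 it was 0.37 (adjusted p = 0.424) and without Sen 3 it was 0.47 (adjusted p = 0.182), so the RPF call needed both libraries. The call was kept without Pro 2, at 0.70 (adjusted p = 0.0481), and without Sen 1, at 0.82 (adjusted p = 0.0493). DESeq2 did not call it either, at 0.65 (adjusted p = 0.51).

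AMOTL2 binds YAP and TAZ and keeps them out of the nucleus. RNA-seq put it at 156, 186 and 204 CPM in Pro and at 186, 157 and 196 CPM in Sen, and its footprints at 219, 271 and 232 CPM in Pro and 278, 222 and 239.6 CPM in Sen. Groups overlapped in both layers. The log2 change was -0.02 in mRNA (interval -0.20 to 0.16, adjusted p = 0.845) and 0.07 in RPF (interval -0.24 to 0.39, adjusted p = 0.743). A pseudogene, RPL39P5, lies within AMOTL2 on the same strand, so its reads are uncertain to that extent.

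AJUBA, a LIM domain protein that holds LATS kinases in check, was the only one of the 9 whose mRNA fell. Its mRNA stood at 96.9, 103 and 101 CPM in Pro and at 66.0, 64.2 and 75.8 CPM in Sen, with no overlap. The log2 change in mRNA was -0.55 (SE 0.08, adjusted p = 2.05e-06). Footprints came to 101, 54.7 and 59.0 CPM in Pro and to 56.6, 51.2 and 49.1 CPM in Sen, with the 3 reads of Sen 2 at the floor and the highest value, Pro 1, resting on 6 reads. These ranges overlap, and the log2 change in RPF was -0.13 with an interval of -0.58 to 0.32 (adjusted p = 0.68). Another protein-coding gene, ENSG00000259132, overlaps AJUBA on the same strand, and AJUBA carried fractions of reads in 5 of 6 RNA-seq libraries.

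Of the transducers, YAP1 passed the test in neither layer. Antisense transcripts ENSG00000254422 and ENSG00000277459 overlap this gene. Its mRNA stood at 174, 169 and 219 CPM in Pro and at 184, 177 and 185 CPM in Sen. The senescent values lay within the proliferating range, and the log2 change was -0.04 with an interval of -0.21 to 0.13 (adjusted p = 0.693). Its footprints came to 185, 128 and 149.8 CPM in Pro and to 137, 136 and 98.1 CPM in Sen. They overlapped, with a log2 change of -0.22 and an interval of -0.56 to 0.13 (adjusted p = 0.337). With library totals in place of TMM factors, YAP1 passed the test as lower, at -0.15 in mRNA (adjusted p = 0.135) and -0.35 in RPF (adjusted p = 0.0979), on a scale where the median of all genes sat at -0.11 and -0.14.

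WWTR1, which encodes TAZ, rose modestly in mRNA. It stood at 70.5, 73.1 and 75.1 CPM in Pro and at 93.0, 88.9 and 97.9 CPM in Sen, without overlap. The change on the log2 scale in mRNA was 0.35 (SE 0.07, adjusted p = 0.000211). Its footprints came to 219, 74.9 and 68.8 CPM in Pro and to 101, 85.3 and 102 CPM in Sen, where Pro 1 was the highest of all from 13 reads. The mean was therefore higher in Pro, 121 CPM against 96.2 CPM. The fitted log2 change, which weights libraries by their reads, was 0.39 in the direction of Sen (SE 0.21, adjusted p = 0.119). As these disagree, no direction is given. The RPF call of WWTR1 was lost in 9 of 13 alternatives, including removal of Pro 2 (0.32, adjusted p = 0.369), Pro 3 (0.14, adjusted p = 0.773), Sen 1 (0.40, adjusted p = 0.335) or Sen 3 (0.40, adjusted p = 0.179). WWTR1-AS1 overlaps on the opposite strand, and WWTR1 carried fractions of reads in 5 of 6 RNA-seq libraries.

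TEAD1, a DNA-binding partner of YAP and TAZ, rose in mRNA and did not pass the test in RPF. In mRNA it stood at 221, 241 and 237 CPM in Pro and at 310.0, 272 and 319 CPM in Sen, without overlap. On the log2 scale the change in mRNA was 0.37 (SE 0.07, adjusted p = 0.000201). Its footprints came to 33.7, 47.5 and 64.2 CPM in Pro, from 2, 33 and 111 reads, and to 47.5, 68.2 and 47.2 CPM in Sen, from 73, 4 and 25 reads. They overlapped, and the log2 change in RPF was -0.25 with an interval of -0.72 to 0.21 (adjusted p = 0.406). The unweighted means went the other way, from 48.5 CPM in Pro to 54.3 CPM in Sen, so no direction is given. Without Pro 3 the RPF change turned to 0.07 (adjusted p = 0.912).

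In edgeR's test of TE 0 of the 9 passed, where 9.98% of 7473 tested genes did. DESeq2 and limma voom also called 0, but the share of all genes that these called in TE is not given here. In DESeq2 the adjusted p was 0.999 for each of the 9, so its 0 says little. At an unadjusted p under 0.05 edgeR gave 1 of the 9, TEAD1. Lysates of both states overlapped in log2 TE for all 9, where 16.2% of genes did not overlap. The log2 TE of TEAD1 was -2.39, -2.32 and -1.88 in Pro and -2.70, -1.83 and -2.73 in Sen, with the shallow Sen 2 above the other senescent lysates. These levels divide by mRNA reads that include the UTRs, and 82.6% of TEAD1 RNA-seq reads lay in the 3′ UTR in both states. Over coding bases alone, relative to the median gene, TEAD1 stood at -0.04 in Pro and -0.26 in Sen, above 48.7% and 37.5% of genes. The change in log2 TE was -0.60 with an interval of -1.09 to -0.11 (adjusted p = 0.167). TEAD1 passed the threshold in 7 of 14 alternatives, for example without Pro 1 at -0.69 (adjusted p = 0.0706), without Sen 2 at -0.63 (adjusted p = 0.148), and without both at -0.67 (adjusted p = 0.0816). For AJUBA the change in log2 TE was 0.46 with an interval of -0.01 to 0.93 (adjusted p = 0.295). For CTGF it was 0.14 with an interval of -0.23 to 0.51 (adjusted p = 0.737), and without both shallow lysates it was 0.40 (adjusted p = 0.0471).

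Levels of different genes were compared as CPM per kilobase of coding sequence, for the CDS reads of both layers. In proliferating footprints the order was CTGF at 1757 ± 109 (SD, n = 3), CYR61 at 903 ± 104 and CRIM1 at 169.5 ± 36.1 CPM per kilobase. AMOTL2, YAP1 and WWTR1 followed at 103 ± 11.5, 102 ± 19.0 and 101 ± 70.8, and did not differ beyond their spread. AJUBA at 44.4 ± 15.9, TEAD1 at 37.9 ± 11.96, ANKRD1 at 21.1 ± 12.2 and LATS2 at 13.8 ± 3.68 closed the order, each overlapping its neighbour. ANKRD1 footprints thus lay above 35.7% of genes. In senescent footprints CTGF stood at 5184 ± 1159, CYR61 at 943 ± 25.8 and ANKRD1 at 370.2 ± 128 CPM per kilobase, the last overlapping CRIM1 at 308 ± 29.3. ANKRD1 then lay above 93.1% of genes, and CTGF above 99.8%. In RNA-seq CDS reads ANKRD1 moved from above 13.1% of genes, at 10.6 ± 1.16, to above 90.2%, at 235 ± 26.2.

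Footprints relative to mRNA over the same coding bases also set the members apart. Values are log2 ratios minus the median of all genes tested in TE, taken in each library. CTGF stood at 1.36 ± 0.31 (SD, n = 3) in Pro and 1.41 ± 0.28 in Sen, above 96.9% and 97.0% of genes. WWTR1 came next by its means, at 1.08 ± 0.95 in Pro, where Pro 1 had 13 footprint reads, and 0.81 ± 0.10 in Sen. CYR61 stood at 0.55 ± 0.06 and 0.68 ± 0.08, and AMOTL2 at 0.54 ± 0.22 and 0.60 ± 0.24. LATS2 was the lowest member, at -0.93 ± 0.23 and -0.88 ± 0.49, above 14.1% and 15.1% of genes. ANKRD1 stood at 0.89 ± 0.99 in Pro, where Pro 1 had 2 footprint reads, and at 0.55 ± 0.67 in Sen.

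Read positions within the transcripts were compared as well. TEAD1 had most of its RNA-seq reads in the 3′ UTR, 82.6% ± 1.505 in Pro and 82.6% ± 2.07 in Sen (SD, n = 3), against 24.9% ± 0.22 and 27.6% ± 1.14 over all genes. The share of WWTR1 was 48.7% ± 3.37 in Pro and 54.8% ± 4.34 in Sen, with ranges of 45.8% to 52.4% and 51.1% to 59.6% that overlap. Footprints in the 5′ UTR of AJUBA numbered 20 of 186 reads over the 3 proliferating libraries, 10.8% (exact 95% interval, 6.69 to 16.1), of which 18 were in Pro 3. In the senescent libraries they numbered 0 of 159.5 reads, which allows a share of up to 1.88% with 3 reads taken as the limit, and 2.28% as the upper bound of the exact interval. For LATS2 they numbered 9 of 127 reads in Pro, 7.09% (3.29 to 13.0), and 19 of 166 reads in Sen, 11.4% (7.03 to 17.3). Over all genes the pooled share was 3.24% in Pro and 9.27% in Sen, also higher in Sen. For CTGF the shares were 1.04% (0.769 to 1.38) and 0.509% (0.393 to 0.648). Intervals cover counting error only. Footprint reads of AJUBA also fell in its 3′ UTR, 5, 8 and 6.5 reads in Pro beside 6, 38 and 102.5 in the CDS, and 20, 12 and 11 reads in Sen beside 87, 3 and 26.5. They outnumbered CDS reads in the shallow Sen 2.

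Other genes of the pathway were grouped in lists by their known roles. Counts in each list are to be read beside the shares over all tested genes. These were 73.6% called in mRNA, 36.6% higher and 37% lower, and 54.4% called in RPF, 27.5% higher and 26.9% lower. The target signature was a list of 16 further genes in common use as YAP targets, and all 16 passed the filter on low counts. In mRNA 8 were higher, 6 lower and 2 not called, with a median log2 change of 0.08 beside -0.01 over all genes. In RPF 7 were higher, 5 lower and 4 not called, with a median of 0.17 beside -0.00. Without Pro 3 the number of signature genes called in RPF dropped from 12 to 7. IGFBP3, which binds insulin-like growth factors, went from 436 ± 3.74 to 3164 ± 41.9 CPM in mRNA (SD, n = 3), a log2 change of 2.86 (SE 0.07, adjusted p = 2.84e-18) with 2.81 in RPF (SE 0.20, adjusted p = 6.74e-21). TGFB2, a transforming growth factor, rose by 1.93 in mRNA (SE 0.08, adjusted p = 3.32e-15) and by 1.72 in RPF (SE 0.19, adjusted p = 1.94e-12). NT5E, the ectonucleotidase CD73, rose by 1.798 in mRNA (SE 0.07, adjusted p = 2.71e-15) and by 1.39 in RPF (SE 0.16, adjusted p = 5.53e-11).

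Signature genes also fell. The receptor tyrosine kinase gene AXL went from 671 ± 4.25 to 454 ± 16.8 CPM in mRNA, a log2 change of -0.57 (SE 0.07, adjusted p = 2.49e-07). NUAK2, a kinase of the AMPK family, fell by 0.61 in mRNA (SE 0.12, adjusted p = 0.000105), and the RNA-binding protein gene RBMS3 fell by 0.54 (SE 0.12, adjusted p = 0.000322). NUAK2 did not pass the test in RPF (-0.38, adjusted p = 0.387), where its unweighted mean was higher in Sen. In RPF the changes of AXL, -0.29 (adjusted p = 0.135), and RBMS3, -0.63 (adjusted p = 0.1), passed narrowly. Both calls were lost without Pro 2, Pro 3 or Sen 3, that of AXL also without Sen 2, and that of RBMS3 also without Sen 1. DESeq2 and limma voom called neither. GADD45A, a stress-response gene also induced by p53, was the 1 signature gene called in TE. Its mRNA rose by 0.87 (SE 0.09, adjusted p = 1.3e-08), its RPF by 1.79 (SE 0.19, adjusted p = 1.04e-12) and its log2 TE by 1.05 (SE 0.20, adjusted p = 0.000195), while DESeq2 put its TE change at 1.13 (adjusted p = 0.667). Without Pro 1, 3 signature genes were called in TE.

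**Figure D4:**
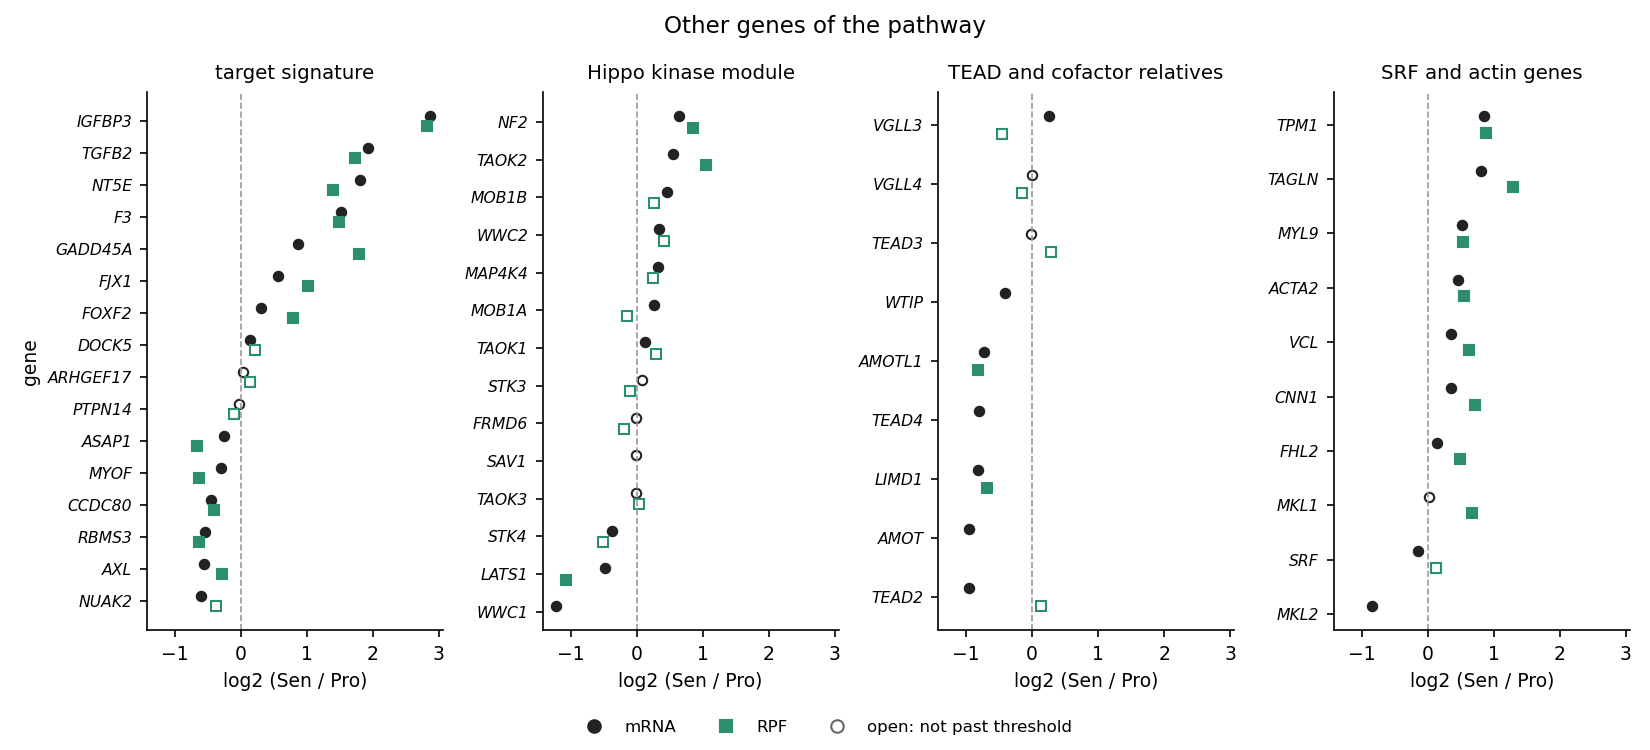
Log2 ratio of senescent to proliferating cells (x axis) in mRNA (black circles) and RPF (green squares) for the tested genes of 4 lists (y axis), with open symbols for genes that did not pass the test. The target signature runs from NUAK2 at -0.61 to IGFBP3 at 2.86 in mRNA, TEAD and cofactor relatives lie mostly to the left, and SRF and actin genes mostly to the right.

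Of 14 genes of the Hippo kinase module, 7 were higher, 3 lower and 4 not called in mRNA, where 73.6% of all tested genes were called. The median log2 change was 0.10 beside -0.01 over all genes. Only 12 passed the filter on low counts in RPF, where 2 were higher, 1 lower and 9 not called, against 54.4% called over all tested genes. NF2, the scaffold merlin that brings LATS to the membrane, rose by 0.65 in mRNA (SE 0.07, adjusted p = 7.94e-08) and 0.85 in RPF (SE 0.20, adjusted p = 0.000264). TAOK2, a kinase that activates MST, rose by 0.55 in mRNA (SE 0.08, adjusted p = 3.27e-06) and 1.04 in RPF (SE 0.22, adjusted p = 6.49e-05), where DESeq2 gave 0.92 (adjusted p = 0.23). MOB1B, a LATS cofactor, rose by 0.46 in mRNA (SE 0.11, adjusted p = 0.00118) and was not called in RPF (0.26, adjusted p = 0.418). LATS1 moved against its paralog LATS2. It fell by 0.48 in mRNA (SE 0.11, adjusted p = 0.000524) and by 1.07 in RPF (SE 0.36, adjusted p = 0.013), and without Sen 1 its RPF change was -0.77 (adjusted p = 0.336). DESeq2 did not call it in RPF either (adjusted p = 0.333). STK4, the gene of MST1, fell by 0.37 in mRNA (SE 0.08, adjusted p = 0.000403) and was not called in RPF (-0.50, adjusted p = 0.245). The scaffold gene WWC1 fell by 1.221 in mRNA (SE 0.14, adjusted p = 1.3e-07), from 15.2 ± 1.32 to 6.48 ± 1.42 CPM.

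TEAD and cofactor relatives moved mostly down. Of 11 listed genes 9 passed the filter in mRNA, where 1 was higher, 6 lower and 2 not called. The median log2 change was -0.73 beside -0.01 over all genes, of which 36.6% were called higher and 37% lower. In RPF 6 passed the filter, with 0 higher, 2 lower and 4 not called, against 27.5% higher and 26.9% lower over all tested genes. TEAD2 went from 61.6 ± 6.47 to 31.6 ± 2.93 CPM in mRNA, a log2 change of -0.96 (SE 0.09, adjusted p = 7.78e-09), opposite in sign to TEAD1. Its RPF change was 0.13 (SE 0.38, adjusted p = 0.803) and its TE change 1.04 (SE 0.39, adjusted p = 0.124), a call that ended on removal of any of Pro 2, Pro 3 or the senescent lysates, and with DESeq2 or limma voom. AMOT, the founding angiomotin, fell by 0.95 in mRNA (SE 0.19, adjusted p = 0.000112). LIMD1, a LIM protein related to AJUBA, fell by 0.81 in mRNA (SE 0.07, adjusted p = 3.17e-09) and by 0.69 in RPF (SE 0.27, adjusted p = 0.0298), a call lost without Pro 2 or Sen 3 and with DESeq2 (adjusted p = 0.615). VGLL3, a cofactor that competes with YAP for TEAD, was the 1 relative that rose, by 0.25 (SE 0.07, adjusted p = 0.00462), and with RNA-seq reads of the CDS alone it stood at 0.13 (adjusted p = 0.358).

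Relatives of the leading members were scarce. Of 6 further CCN and muscle ankyrin genes 3 passed the filter in mRNA and 0 in RPF. CCN3 fell by 1.31 in mRNA (SE 0.22, adjusted p = 1.6e-05), from 4.15 ± 0.52 to 1.69 ± 0.28 CPM. WISP1 rose by 0.50 (SE 0.09, adjusted p = 6.28e-05). Its reads were shared with the newer symbol CCN4, for which the tables list nearly equal reads, so its level is understated while its ratio is not. ANKRD23, a muscle ankyrin gene, stood at -0.22 (adjusted p = 0.559), and ANKRD2 did not pass the filter, at 0.80 ± 0.28 CPM in Pro and 0.34 ± 0.17 CPM in Sen.

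SRF and its actin-regulated cofactors of the MRTF family share cytoskeletal targets with YAP. Of 10 genes of this list 7 were higher, 2 lower and 1 not called in mRNA. The median log2 change was 0.35 beside -0.01 over all genes, of which 36.6% were called higher and 37% lower. In RPF 9 passed the filter, and 8 were higher, 0 lower and 1 not called. The median there was 0.63 beside -0.00 over all genes, of which 27.5% were called higher and 26.9% lower. TPM1, a tropomyosin, rose by 0.86 in mRNA (SE 0.07, adjusted p = 6.64e-10) and 0.89 in RPF (SE 0.18, adjusted p = 3.13e-05). TAGLN, the actin-binding protein SM22, rose by 0.80 (SE 0.08, adjusted p = 8.86e-09) and 1.29 (SE 0.19, adjusted p = 4.52e-08). MYL9, a myosin light chain, rose by 0.52 (SE 0.08, adjusted p = 1.15e-05) and 0.54 (SE 0.17, adjusted p = 0.00855). The summed smooth muscle markers, given above, were higher in Sen as well, mostly through ACTG2, while MYH11 and DES of that list were lower. SRF itself stood at -0.14 in mRNA (SE 0.08, adjusted p = 0.104), a call lost in 7 of 14 alternatives, among them removal of Pro 1, Pro 2, Sen 1 or Sen 2. The MRTF gene MKL2, whose reads were shared with the symbol MRTFB, fell by 0.84 in mRNA (SE 0.16, adjusted p = 7.18e-05), from 8.13 to 4.63 CPM. The more abundant MRTF gene MKL1, with reads shared with MRTFA, stood at 35.3 CPM in Pro and 35.9 CPM in Sen. Its log2 change was 0.02 in mRNA (adjusted p = 0.867), and it was called higher in RPF, at 0.68 (SE 0.30, adjusted p = 0.0604).

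The genes whose pattern came nearest to ANKRD1 were ranked by the root mean square distance in log2 CPM over the 12 libraries, each gene set to the mean of its proliferating libraries. The nearest 5 were CCND2, a cyclin, at 0.62, CLDN1, a tight junction protein, at 0.62, EDN1, the vasoconstrictor endothelin, at 0.66, SERPINE2, a protease inhibitor, at 0.72 and NPPB, the natriuretic peptide BNP, at 0.75. The median over all genes was 3.05, and the nearest member was CTGF at 1.94, followed by LATS2 at 2.47 and CRIM1 at 2.48. In mRNA CCND2 went from 16.6 to 172 CPM, CLDN1 from 22.7 to 286 CPM and EDN1 from 3.01 to 58.1 CPM in the means of 3 libraries. SERPINE2 went from 77.4 to 775 CPM and NPPB from 1.962 to 23.4 CPM. These genes were selected on the same values, so they carry no test, and EDN1 and NPPB had 0 footprints in some libraries.

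**Figure D5:**
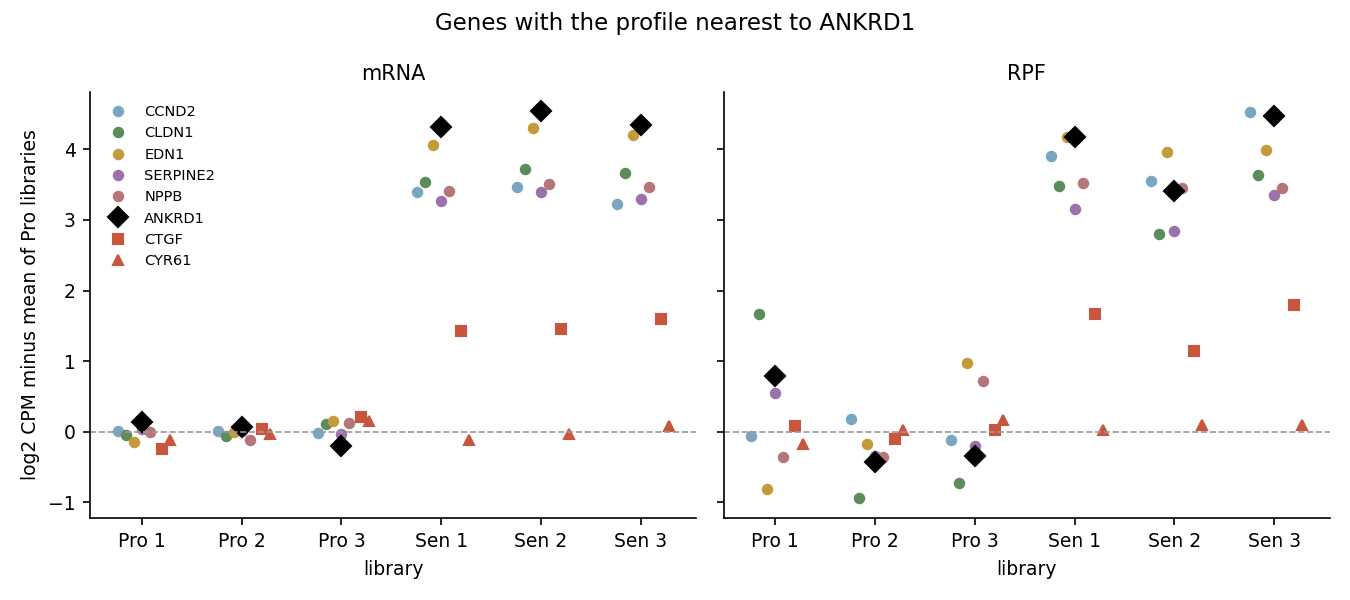
Log2 CPM minus the mean of the proliferating libraries of the same type (y axis) in each RNA-seq and Ribo-seq library (x axis), for ANKRD1 (black diamonds), the 5 genes nearest to it (coloured circles), CTGF (red squares) and CYR61 (red triangles). The nearest genes lie with ANKRD1 in the senescent libraries, CTGF lies in between, and CYR61 stays by 0.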

How the data were processed

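IMR90 fibroblasts were profiled by Ribo-seq and poly(A) RNA-seq in 3 proliferating and 3 senescent lysates, and groups were taken from the sample labels. The deposited values are expected counts, not scaled to depth, which the authors gave by symbol for the CDS and each UTR, with some reads split between symbols in fractions. Per the submitters' processing notes, cutadapt 1.18, Bowtie 1.0.1, SAMtools 1.8 and DESeq2 1.22.2 were used, and the build, annotation and strand rule are not given in the sources used here.

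Expected counts were summed over regions, rounded, and restricted to 16451 symbols with a CDS read. They were tested with edgeR 4.0.16 in R 4.3.3 (filterByExpr, TMM factors, two-sided quasi-likelihood test, Benjamini-Hochberg adjusted p under 0.15, the published false discovery rate of 15%). TE was the interaction of library type with state over all 12 libraries, with the lysate as a block and 0.5 added to counts for log2 TE per lysate. Log2 CPM used a prior count of 2. Intervals of log2 changes are 95% normal intervals from the SE. The fits were also run on simulated counts, and no result here rests on that run. Alternatives were limma 3.58.1, DESeq2 1.42.0, other scaling and filters, and leaving out each lysate.

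All 10 members are named. From each other list the rule took the up to 3 highest and 3 lowest mRNA changes among called genes, any gene called in RPF against its mRNA direction, and any called in TE; other genes named were chosen after their values were seen. The members and lists were chosen with earlier results of these data known. Coding lengths and overlapping genes came from GENCODE, with a length for 97.4% of genes tested in both layers, and promoters from RefSeq. Replicates are labelled as independent replicas, and nothing says whether they were separate cultures from thawing on, so p-values measure the spread between these samples.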

Additional observations from a re-analysis of the deposited data

How the results depend on the processing

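Calls in mRNA were stable, with 6 of 9 members changed in all alternatives but library totals without TMM factors, where YAP1 made it 7. Members changed in RPF numbered 4, but 2 with DESeq2, 2 when at least 10 CDS reads were required in every Ribo-seq library (a filter that only 4 of the 9 passed), and 2 to 4 when each lysate was left out. Members changed in TE numbered 0, but 1 with RLE factors, 1 with library totals, 1 with CDS reads only in RNA-seq, 2 without both shallow lysates, and 0 to 1 when each lysate was left out. Signature genes changed in RPF numbered 12, but 6 with DESeq2, 6 with the filter of 10 reads, and 7 to 12 when each lysate was left out. Those changed in TE numbered 1, but 0 with DESeq2, 3 with library totals, 2 without both shallow lysates, 2 with the filter of 10 reads, and 1 to 3 when each lysate was left out.

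Between same-numbered samples of the states, r across genes ran from -0.20 to 0.24 in mRNA and from 0.01 to 0.04 in RPF. Between RNA-seq and Ribo-seq libraries of the same lysate it ran from -0.05 to 0.07. As r was this low for a known pairing, it cannot decide whether numbers mark pairs. The labels do not say that they do, so numbers were not taken as pairs. A replicate block left 6 members changed in mRNA and 3 in RPF, where WWTR1 stood at 0.10, and 6 signature genes in RPF. It also ended the RPF calls of AXL (-0.38), RBMS3 (-0.51) and LIMD1 (-0.80). Without the lysate block, no replicate block in the TE fit, 1 member (TEAD1) and 2 signature genes changed in TE.

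Log2 changes near 0 turned sign without becoming calls, and the cause was not tested. With CDS reads only, mRNA changes were 0.0093 for AMOTL2 and 0.072 for YAP1. With library totals, RPF changes were -0.11 for CYR61, -0.058 for AMOTL2 and -0.0019 for TEAD2. The RPF change of CYR61 was -0.033 without both shallow lysates and -0.099 with the filter of 10 reads, which gave -0.036 for AMOTL2. The TE change of WWTR1 was -0.27 with DESeq2 and -0.045 with limma voom. When each lysate was left out, mRNA changes ranged from -0.085 to 0.054 for CYR61, from -0.12 to 0.064 for AMOTL2 and from -0.11 to 0.085 for YAP1. RPF changes ranged from -0.084 to 0.13 for CYR61, from -0.038 to 0.15 for AMOTL2, from -0.38 to 0.071 for TEAD1 and from -0.18 to 0.30 for TEAD2. TE changes ranged from -0.025 to 0.25 for AMOTL2, from -0.35 to 0.047 for YAP1 and from -0.21 to 0.13 for WWTR1.

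Depth limited the footprint results of single libraries, as Pro 1 and Sen 2 held few reads of every member but CTGF, CYR61 and CRIM1. Without both, 4 members were called in RPF, whereas without Pro 3 or without Sen 3 there were 2. With library totals the share of higher genes among those called fell from 49.8% to 40.4% in mRNA and from 50.5% to 39.5% in RPF.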
